A study of Mus musculus with 12 samples.

Results

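Prolactin, the prolactin-related proliferins and the prolactin receptor were examined in 12 single cultured cardiac progenitor cells (CPCs). The genes were Prl, Prl2c2, Prl2c3, Prl2c5 and Prlr, 5 of the 21729 genes in the count table. They were chosen from values of these same cells: Prl was picked because 1 cell, CPC2, held nearly all of its counts, and CPC2 is therefore given apart. Of the 5 genes, 4 had counts and all 4 reached 10 CPM (counts scaled to a sum of 1000000 in each cell) in at least 1 cell, while Prlr had none. Over the whole table, 49.2% of the genes reached 10 CPM in a cell.

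The CPCs came from the hearts of 12-week-old female FVB mice, from which the non-myocyte cells were depleted of blood lineages and sorted with magnetic beads for the surface receptor c-Kit. They were grown on gelatin in serum medium with leukemia inhibitory factor, basic fibroblast growth factor, epidermal growth factor, insulin and transferrin, and were used after 5 passages. Each cell was picked by hand under the microscope and made into 1 full-length Smart-Seq library, and hearts were pooled before culture. All 12 cells form 1 cultured group without genetic change; the labels name no culture for a cell, so the cells are not replicates of a condition and no test was made.

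Prolactin is a peptide hormone of the anterior pituitary, made by lactotroph cells under the transcription factor Pou1f1, and it is best known for milk production. It acts through its receptor Prlr, a cytokine receptor without enzyme activity of its own, which works through the kinase Jak2 and the transcription factor Stat5. In rodents the prolactin gene has been copied many times, and most copies are expressed in the placenta. The proliferins, encoded by the Prl2c genes, are secreted glycoproteins named after growing mouse fibroblasts, in which they were first found, and the mannose 6-phosphate receptor Igf2r binds them.

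Total counts ran from 3453708 to 5690184 per cell, from 10022 to 11950 genes were counted, and mitochondrial genes took 1.02 to 2.77% of the counts. A gene at 0 could lie at the level of 3 counts, which is 0.527 CPM in the deepest cell and 0.869 CPM in the shallowest. These limits and the exact 95% intervals given with the values cover counting error only, because the libraries carry no molecular identifiers. The sorting marker Kit was counted in 1 of 12 cells, at 3.94 CPM in CPC10. Although the hearts are labelled female, the Y-linked genes Ddx3y and Eif2s3y were counted in all 12 cells, with medians of 62.8 and 64.5 CPM. Endothelial markers summed to 9792 CPM in CPC10, and haematopoietic markers to 1623 CPM in CPC3, of which Cd53 gave 1463 CPM. Cd68, Csf1r, Lyz2 and Adgre1 were also highest in CPC3, at 1.58 to 69.1 CPM, while Ptprc, Itgam and Laptm5 had no count there. Leaving out either cell was tried for the ratio of CPC2 to the next cell in each of the 4 counted members, for the proliferin sum and for the number of genes that stood out in CPC2, and for no other value. The part of these differences in the results was not tested.

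The 3 proliferins examined are near copies of each other, which bears on every value below. Prl2c2 (ENSMUSG00000079092, chr13:12996125-13005383, minus strand), Prl2c3 (ENSMUSG00000056457, chr13:12790816-12800079, minus strand) and Prl2c5 (ENSMUSG00000055360, chr13:13182715-13191923, plus strand) each have 5 exons and lie within 401107 bases of chromosome 13 (GRCm38, the assembly behind mm10). The coding sequences of Prl2c2 and Prl2c3 differed at 3 of 675 bases, and Prl2c5 was 96.1% identical to Prl2c2. Prl was 54.6% identical to Prl2c2. Coding bases 287 to 376 are shown because they hold 1 of the 3 differences between Prl2c2 and Prl2c3 and set Prl2c5 apart. Capitals mark the 8 positions at which the 3 GENCODE vM21 sequences are not all the same.
Prl2c2: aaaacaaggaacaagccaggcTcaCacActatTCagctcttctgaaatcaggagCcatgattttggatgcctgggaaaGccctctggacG
Prl2c3: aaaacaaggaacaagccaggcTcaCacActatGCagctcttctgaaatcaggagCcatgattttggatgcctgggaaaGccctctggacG
Prl2c5: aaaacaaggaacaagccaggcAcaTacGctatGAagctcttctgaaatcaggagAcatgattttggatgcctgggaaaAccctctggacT

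At 1 marked position Prl2c2 stands apart from both Prl2c3 and Prl2c5, and at the other 7 Prl2c2 and Prl2c3 are alike and Prl2c5 stands apart. Only reads with a unique position in the genome were counted, so a read pair that lies wholly in identical sequence was lost, while a read could be placed where its mate covered a difference. Of all stretches of 75 bases, the read length, 19.9% in the Prl2c2 transcript occurred in no other annotated transcript, against 30.1% in Prl2c3, 80.4% in Prl2c5 and 100% in Prl. Prl2c2 shared 547 of its 768 stretches with Prl2c3 and 154 with the pseudogene Gm7040. These shares are for single reads, and those of pairs were not computed. The split between Prl2c2 and Prl2c3 is uncertain. The cells came from FVB mice and the genome is that of another strain, so a base that differs between strains could move reads from one copy to the other; this was not tested.

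Prl itself (ENSMUSG00000021342, chr13:27057570-27065205, plus strand, 5 exons) lies 13865647 bases beyond Prl2c5. In CPC2 it had 5317 counts, or 1313 CPM (1278 to 1349), and was the 75th most abundant gene of that cell. The other cells had 37 counts in CPC10, 22 in CPC8, 22 in CPC11, 12 in CPC1 and 10 in CPC4, and no count in CPC3, CPC5, CPC6, CPC7, CPC9 and CPC12. CPC2 thus stood alone, with 98.1% of all Prl counts. The next cell, CPC10, was at 6.95 CPM, and CPC2 was 189-fold above it. Without CPC10 the next cell was CPC8, at 4.0 CPM, and the ratio was 328-fold. The other 5 cells with counts were at 0.183 to 0.529% of the CPC2 level. The libraries were sequenced as a pool, and what part reads assigned to the wrong cell have in these low counts was not tested. Since CPC2 was set apart for this gene, these values describe the choice and support nothing further.

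**Figure D1:**
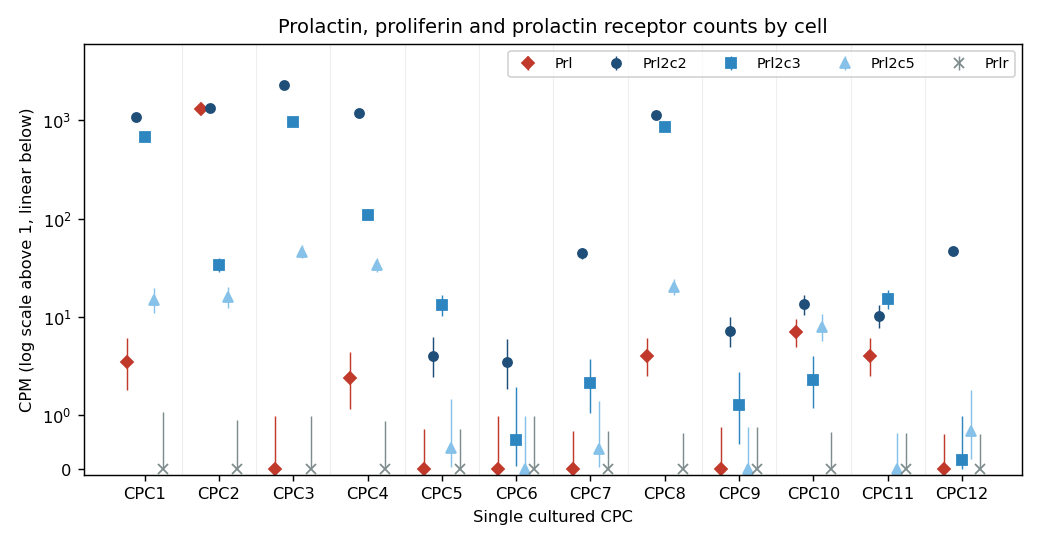
Levels of Prl, Prl2c2, Prl2c3, Prl2c5 and Prlr in each of the 12 cells, in CPM on an axis that is logarithmic above 1 and linear below; points are the values and bars the exact 95% Poisson intervals. Prl is high in CPC2 alone, the proliferins are high in CPC1, CPC2, CPC3, CPC4 and CPC8, and Prlr is at 0 throughout.

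The 250 bases before the start of Prl are shown because the pituitary factor Pou1f1 is known to drive prolactin from this stretch. They come from RefSeq on GRCm38.p6 (chr13:27057320-27057569, plus strand), and capitals mark matches to ATGNATA, the core of a Pou1f1 site, and to TATAAA, the TATA box, on either strand.
Prl: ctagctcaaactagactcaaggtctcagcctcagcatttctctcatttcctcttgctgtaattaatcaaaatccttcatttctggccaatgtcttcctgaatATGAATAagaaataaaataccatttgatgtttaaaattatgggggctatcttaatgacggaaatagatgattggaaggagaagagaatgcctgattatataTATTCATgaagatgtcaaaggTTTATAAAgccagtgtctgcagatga

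ATGNATA occurred at 148 bases before the start and, on the other strand, at 47 bases. Among 32817 promoter windows of the same kind, 7.93% held it. TATAAA was matched on both strands by overlapping letters at 26 and 24 bases before the start, and 12.4% of the windows held it. These matches describe the letters only. Pou1f1 itself was not counted in CPC2; its counts came from 2 cells, and its highest value was 1.45 CPM in CPC1.

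CPC2 was not a cell with many private genes. Of 10698 genes that reached 10 CPM in at least 1 cell, 35 (0.327%) were at least 2-fold higher in CPC2 than in the highest other cell, with 1 CPM added to both. The same count ran from 38 to 491 in the other cells, the highest in CPC10. Without CPC10 it was 43 in CPC2, and without CPC3 it was 44. Beside Prl, the genes that stood highest over the next cell were Fgf13, a fibroblast growth factor homologue that stays inside the cell, Dsp, which encodes the desmosome protein desmoplakin, the pheromone receptor gene Vmn2r79, BC067074, and the eye and pancreas transcription factor Pax6. Fgf13 had 140 counts in CPC2 (34.6 CPM) and 0.264 CPM in the next cell. Vmn2r79 was at 333 CPM against 51.7 CPM in CPC3. Klhl1, Cth, an enzyme that makes cysteine, Vstm2b and Dctd, an enzyme of nucleotide supply, completed the first 10, at 26.2 to 142 CPM. With 1 CPM added, Prl was 165-fold and Fgf13 28.1-fold above the next cell, and on that scale Prl was the 1 gene past 100-fold in CPC2, while 11 genes were in CPC10 and 6 in CPC3.

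**Figure D2:**
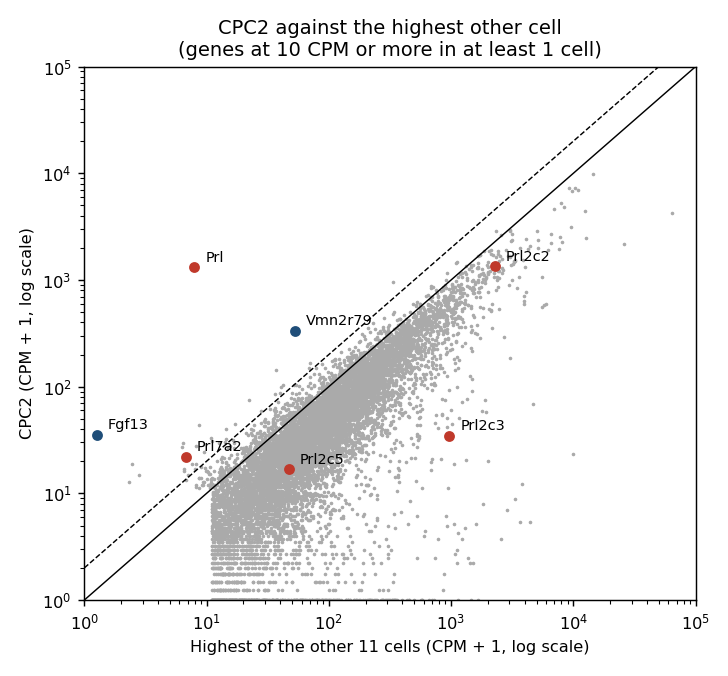
CPC2 against the highest of the other 11 cells for each gene at 10 CPM or more in at least 1 cell, both in CPM + 1 on log scales; the solid line is equality and the dashed line a 2-fold excess in CPC2. Prl is farthest above the lines, while Prl2c2, Prl2c3 and Prl2c5 lie below them.

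Prl, Dsp and BC067074 are all on chromosome 13. Over 186 well counted genes of this chromosome, the level in CPC2 minus the median of the 12 cells was 0.57 at the median on a log2 scale with 5 CPM added, and 168 genes (90.3%) were higher. In the other cells the chromosome 13 value lay between -0.44 and 0.14, and 22.0% (CPC9) to 67.7% (CPC6) of its genes were higher. In CPC2 the other chromosomes lay between -0.13 and 0.27, and their shares of higher genes are not given here. The chromosome 13 value of CPC2 is the one ranked next. Among 240 pairs of chromosome and cell it was in position 4 by size. Of the 6 nearest protein-coding genes outside its family, 5 were in the table, Gm11361 not among them. Hdgfl1, Nrsn1 and Dcdc2a had no count in any cell, Sox4 was at 12.1 CPM in CPC2 against a median of 45.5 CPM over the 12 cells, and Cdkal1 was at 32.6 CPM against 24.8 CPM.

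Prl2c2 was the proliferin with the most counts, 29665 over the 12 cells. It stood at 2269 CPM in CPC3, 1350 CPM in CPC2, 1178 CPM in CPC4, 1128 CPM in CPC8 and 1092 CPM in CPC1. The remaining cells were at 46.9 CPM in CPC12, 44.5 CPM in CPC7, 13.3 CPM in CPC10, 10.1 CPM in CPC11, 7.13 CPM in CPC9, 3.98 CPM in CPC5 and 3.45 CPM in CPC6. No cell lay between 46.9 and 1092 CPM, and the gap was 23.3-fold. A gap of 10-fold or more, with 1 CPM added and at least 3 cells on each side, was found in 23 of 10698 genes (0.215%), and that of Prl2c2 was in position 3 by size. Prl2c2 was among the 105 most abundant genes in each of the 5 high cells, and was the 34th in CPC3.

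Prl2c3 was highest in the same 5 cells but spread far more widely among them. It was at 967 CPM in CPC3, 848 CPM in CPC8, 682 CPM in CPC1, 109.05 CPM in CPC4 and 33.8 CPM in CPC2. Elsewhere it ran from 0.176 CPM, a single count in CPC12, to 15.2 CPM in CPC11. CPC2 and CPC4, which were close to CPC1 and CPC8 for Prl2c2, were thus well below them for Prl2c3.

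Prl2c5 had the fewest counts of the 3, 589 over the 12 cells, though it was above Prl2c3 in CPC10 and CPC12. It was at 45.9 CPM in CPC3, 33.6 CPM in CPC4, 20.0 CPM in CPC8, 15.8 CPM in CPC2 and 14.8 CPM in CPC1. It was at 7.89 CPM in CPC10, below 1 CPM in CPC5, CPC7 and CPC12, and at 0 in CPC6, CPC9 and CPC11. The counting interval of CPC3 (39.3 to 53.2 CPM) met that of CPC4 (28.2 to 39.6 CPM) only at its edge, while those of CPC1, CPC2 and CPC8 overlapped more widely. Per kilobase of exon, the highest value was 2695 CPM for Prl2c2, 1129 CPM for Prl2c3 and 43.5 CPM for Prl2c5, all in CPC3; Prl in CPC2 was at 1465 CPM per kilobase and Prl2c2 in that cell at 1603. Prl2c5 has the largest share of unique stretches of the 3 proliferins.

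All 3 proliferins therefore had their 5 highest values in CPC1, CPC2, CPC3, CPC4 and CPC8. These are not groups of the study but cells listed by the level of the genes themselves. Of the 10698 genes, 12 (0.112%) had these 5 cells above the other 7, and those with the widest separation were Prl2c2 (23.3-fold), Prl2c3 (2.23-fold) and Prl2c5 (1.87-fold). In 2 genes (0.0187%), Prl2c2 and Prl2c3, the separation was at least 2-fold with 1 CPM added. The next gene was Hist1h4h, a histone H4 gene. The 5 cells were listed by the sum of the 3 proliferins. The shares of 0.112% and 0.0187% therefore describe the choice and support nothing further. Totals ran from 3453708 to 5500451 counts in the 5 cells and from 3764196 to 5690184 in the others, and genes counted from 10022 to 11950 and from 10036 to 11876. The ranges overlapped, but CPC1, CPC2, CPC3 and CPC4 had 4172587 counts or fewer, as 1 of the other 7 cells (CPC6) had. With each cell thinned to the lowest total, the gap in the proliferin sum was 25.95-fold. Because near-identical sequence links the 3 genes, their order across cells is not 3 separate observations.

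The summed proliferin level does not depend on which of the 3 copies a read was given to, although reads that fit more than 1 copy are still missing from it. It was 3282 CPM in CPC3, 1997 CPM in CPC8, 1789 CPM in CPC1, 1400 CPM in CPC2 and 1321 CPM in CPC4. In the others it ran from 3.98 CPM in CPC6 to 47.8 CPM in CPC12, with CPC7 close behind CPC12 at 47.0 CPM. The gap was 27.6-fold and lay between 25.95-fold and 27.9-fold when other scalings or equal depth were used. All 12 cells had proliferin counts, the fewest being 15 in CPC6. As for Prl, what part reads assigned to the wrong cell have in the counts of the low cells was not tested. The same limit holds for the copy shares and r values drawn from those cells.

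The share of each copy was not the same from cell to cell. The median share over the 12 cells was 77.1% for Prl2c2, 14.2% for Prl2c3 and 1.07% for Prl2c5. With the counts of all cells pooled, which the cells with many counts dominate, it was 71.1%, 27.5% and 1.41%. Prl2c3 made up 42.5% in CPC8 (exact 95% binomial interval 41.6 to 43.4%), 38.1% in CPC1 (36.9 to 39.3%), 29.5% in CPC3 (28.7 to 30.3%), 8.25% in CPC4 (7.54 to 9.01%) and 2.42% in CPC2 (2.03 to 2.85%). The intervals of these 5 cells did not overlap, but they cover counting error only, not amplification or the placing of reads. Among the cells with few counts, Prl2c3 took 75% of 88 counts in CPC5 and 60.0% of 140 in CPC11, but 0.368% of 272 in CPC12. Prl2c5 took 33.6% of 125 counts in CPC10 and at most 2.54% in each other cell. With 3 coding differences between the first 2 genes, the split rests on few positions, as the sequences above show.

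**Figure D3:**
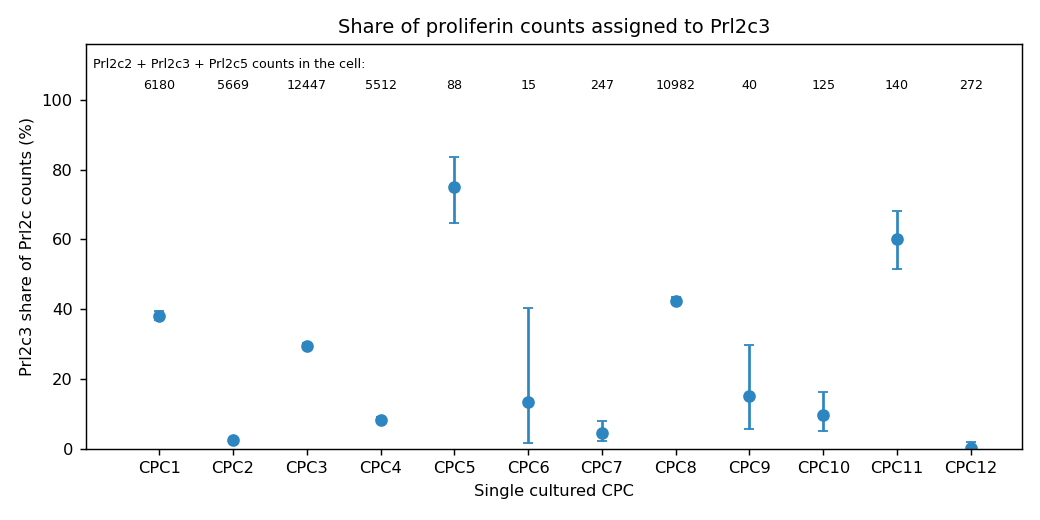
Share of the summed Prl2c2, Prl2c3 and Prl2c5 counts that was assigned to Prl2c3 in each of the 12 cells, in percent, with exact 95% binomial intervals; the number above each point is the summed count. CPC1, CPC3 and CPC8 lie between 29.5 and 42.5%, and CPC2 and CPC4 below 10%.

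The stretches before Prl2c3 and Prl2c5 are shown because these copies are alike in sequence while Prl2c3 was above Prl2c5 by more than 10-fold in CPM per kilobase in CPC1, CPC3 and CPC8. In CPC2 and CPC4 the gap was smaller, and in CPC10 and CPC12 Prl2c5 was the higher, in CPC12 by 4 counts against 1. In the remaining cells, all with few counts, Prl2c3 was the higher. It was at 15.3 against 0.378 CPM per kilobase in CPC5 and at 17.7 against 0 in CPC11. The stretches are 250 bases each from RefSeq on GRCm38.p6, at chr13:12800080-12800329 on the minus strand for Prl2c3 and chr13:13182466-13182715 on the plus strand for Prl2c5. Capitals mark bases that differ or face a gap when the 2 are aligned. The table of promoters had a row for 4 of the 5 genes, Prl2c2 not among them.
Prl2c3: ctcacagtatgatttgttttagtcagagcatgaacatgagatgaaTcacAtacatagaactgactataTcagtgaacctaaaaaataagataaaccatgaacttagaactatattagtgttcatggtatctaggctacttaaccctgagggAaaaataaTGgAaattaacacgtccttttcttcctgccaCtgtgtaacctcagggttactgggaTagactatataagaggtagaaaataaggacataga
Prl2c5: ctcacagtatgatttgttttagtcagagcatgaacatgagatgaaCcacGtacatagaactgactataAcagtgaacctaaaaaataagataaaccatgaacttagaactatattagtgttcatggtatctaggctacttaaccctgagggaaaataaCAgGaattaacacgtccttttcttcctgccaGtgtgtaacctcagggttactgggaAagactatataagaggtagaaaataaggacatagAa

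The pair was identical at 241 of 251 aligned positions (96.0%). The pattern TGANTCA, which takes in the core of an AP-1 site and is the same on both strands, was matched at 209 bases before the start of Prl2c3. The letter at N in that match is not one of those in the known AP-1 core. The first marked difference falls in the match, and Prl2c5 had none; 6.75% of all windows held it. AP-1 proteins are dimers of the Fos and Jun families, and all 7 AP-1 genes examined had counts, as did 66.6% of the whole table. Fosl1 and Junb were counted in all 12 cells, at medians of 169 and 232 CPM. Fos was at 19.8 CPM and Fosl2 at 16.0 CPM in CPC2, against medians of 8.66 and 35.1 CPM in the other 11 cells.

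Prl and the proliferins did not share an order across cells. CPC2 had the only high Prl value, but came after CPC3, CPC8 and CPC1 for the proliferin sum. CPC3, with the most proliferin, had no Prl count, and CPC10, second for Prl, was at 23.5 CPM for the sum. Pearson's r of log2(CPM + 1) between Prl and Prl2c2 was 0.42 over the 12 cells and 0.27 without CPC2. It was 0.20 and 0.37 for Prl2c3 and 0.39 and 0.43 for Prl2c5, which had 0.65 with Prl within the 7 low cells, where Prl was at 6.95 CPM or less. Among the proliferins r was 0.81 to 0.90 over 12 cells, but -0.35 to 0.22 within the 7 low cells, so the high values rest on the step between the 2 sets of cells. The points share libraries and scaling, and these r values are descriptions.

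Among 9701 genes, those most like the proliferin sum across the 12 cells were, after its own members, Hist1h4h (r = 0.90) and Ergic1 (r = 0.82), a gene for a protein that cycles between endoplasmic reticulum and Golgi. Hist1h4h had an r of 0.86 within the 7 low cells, but its level there was at most 2.11 CPM, near the limit of a few counts. Ergic1 had -0.30. Gpr137b, which encodes a lysosomal membrane protein, was the fifth for Prl2c2 (r = 0.79). Bri3bp (r = 0.84) was among the first 5 for Prl2c3, and Dkk2, a secreted regulator of Wnt signalling (r = 0.83), Tmem248 (r = 0.81) and the macrophage growth factor receptor Csf1r (r = 0.79) were among those for Prl2c5. Csf1r was highest in CPC3, at 59.1 CPM. For Prl, the first 5 were Insig1, which restrains cholesterol synthesis, Dhrs13, Mrpl17, Phtf2 and Rtca, with r of 0.73 to 0.79, all highest in CPC2. Without CPC2, and also by Spearman's rho, 0 of these 5 were among the first 5. Insig1 was at 264 CPM in CPC2 against a median of 66.1 CPM and kept an r of 0.74 without that cell. Phtf2 had 0.36 without it.

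Gpr137b is also a neighbour of the proliferins, 165697 bases beyond Prl2c5, and Nid1, which encodes the basement membrane protein nidogen, follows at 245628 bases. Over 12 cells their r with the proliferin sum was 0.77 and 0.80. With the proliferins themselves left out, these values took positions 4 and 3 among 9698 genes. Gpr137b was at 280 CPM in CPC1, 235 CPM in CPC8, 217 CPM in CPC2 and 216 CPM in CPC4, but at 73.6 CPM in CPC3, the cell with the most proliferin; CPC11 followed at 117 CPM and CPC5 was lowest at 26.9 CPM. Nid1 was highest in CPC8 (2972 CPM), CPC1 (2021 CPM) and CPC4 (1405 CPM), followed by CPC7 (1269 CPM), a cell low in proliferins. Neither gene separated the 5 cells from the others.

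The other nearest neighbours behaved differently. Lyst had an r of 0.18, Ero1lb of 0.31 and Lgals8 of 0.24, and Edaradd was counted in 4 cells. Over 27 genes within 5 Mb the median r was 0.21, from -0.51 to 0.80, and 20 were positive, against a median of -0.05 over 9698 genes, of which 4201 were positive. Within the 7 low cells 6 of the 27 had a positive r, beside 3599 of 9696 genes, and Nid1 and Gpr137b had 0.77 and 0.61.

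**Figure D4:**
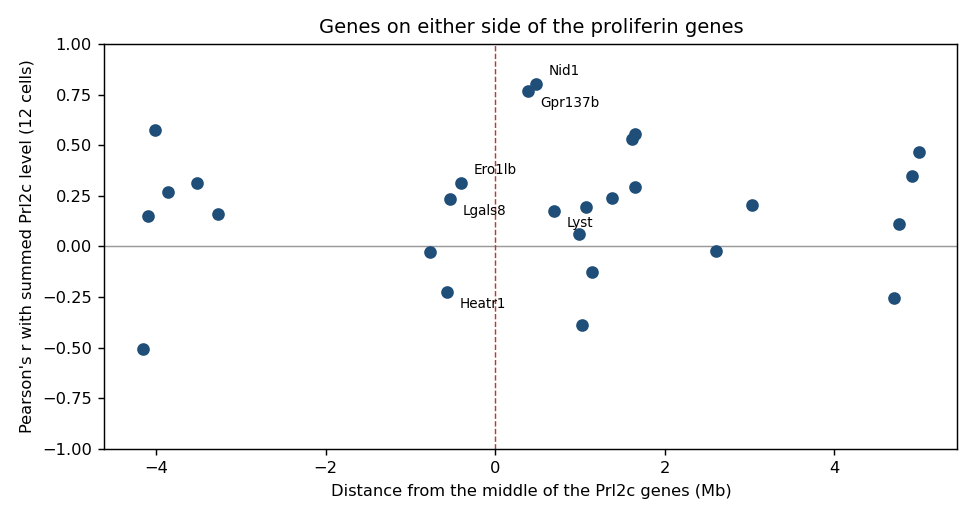
Pearson's r of each of 27 genes with the summed proliferin level over 12 cells, against distance in Mb from the middle of Prl2c2, Prl2c3 and Prl2c5 (dashed line). Nid1 and Gpr137b, at 0.80 and 0.77, stand above the other genes of the neighbourhood, which lie at 0.57 or lower.

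Prlr, the prolactin receptor (ENSMUSG00000005268, chr15:10177238-10349180, plus strand), had 0 counts in all 12 cells, as did 33.4% of all genes in the table. The most that 3 counts would allow is 0.527 to 0.869 CPM per cell. Of the 75-base stretches in 1 of its transcripts, 98.7% were unique; how its reads were counted is not given in the sources used here. Of its nearest neighbours, Agxt2, 9352 bases beyond it, was counted in 1 cell, Spef2 in 2 cells, and Il7r and Capsl in none. Dnajc21 and Brix1, at 97576 and 125599 bases, were counted in all 12 cells.

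Of 11 related cytokine receptors, 9 had counts in some cell, beside 66.6% of the whole table. The growth hormone receptor gene Ghr, a close relative of Prlr, was counted in all 12 cells, from 68.0 to 956 CPM with a median of 184 CPM, and was at 92.3 CPM in CPC2. Lifr, the receptor for the leukemia inhibitory factor of the medium, had a median of 9.48 CPM, and its partner Il6st of 56.2 CPM. Csf3r had no count in any cell. Igf2r, which binds proliferin, was counted in all 12 cells, from 6.33 CPM in CPC3 to 145 CPM in CPC10, with a median of 45.8 CPM and 24.4 CPM in CPC2. The cell with the most proliferin was thus the lowest for Igf2r.

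The genes that act behind the prolactin receptor were counted although the receptor was not. All 25 of the list had counts in some cell, as did 66.6% of the whole table, and all 25 had counts in CPC2. Compared with the median of the other 11 cells, with 1 CPM added, 2 of the 25 were at least 2-fold higher in CPC2 and 4 at least 2-fold lower; over the 10698 genes the shares were 13.1% and 8.92%. The kinase Jak2 was at 18.0 CPM in CPC2 against a median of 45.1 CPM. Stat5a and Stat5b had medians of 6.38 and 13.9 CPM over the 12 cells, and Stat3 of 108 CPM. Socs2, a feedback inhibitor of the pathway and one of its targets, was at 86.4 CPM in CPC2 against 79.6 CPM, and Cish, another target, at 10.1 CPM against 12.5 CPM. Ppia, a prolyl isomerase known to act on the receptor, was the highest of the list, with a median of 2013 CPM, and the cyclin Ccnd1 had one of 902 CPM.

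Of 22 other genes of the prolactin family, 9 had counts and 13 had none, beside 66.6% and 33.4% of the whole table. Most of these are known as genes of the placenta. All lie between 27057570 and 28151611 on chromosome 13, in 1 stretch with Prl. Prl7a2 was the only one to reach 10 CPM, at 21.0 CPM (85 counts) in CPC2 and 5.80 CPM (22 counts) in CPC3. Prl7a1 had 45 counts in CPC7, Prl2a1 25 in CPC2, 20 in CPC3 and 19 in CPC5, and Prl8a8 11 in CPC3. Prl2c1, which lies in this stretch and is not part of the proliferin sum, had 25 counts. These were 9 in CPC3, 5 in CPC4, 5 in CPC8, 4 in CPC2, 1 in CPC1 and 1 in CPC7. CPC2 held counts of 8 of these genes (136 counts) and CPC3 of 5 (71 counts), while CPC10 and CPC12 held none. Of the 9 counted genes, 6 had their highest count in CPC2. The share was 5.56% over the 10698 genes at 10 CPM or more in a cell, but Prl7a2 is the only 1 of the 9 among those, so that share is not one for genes as low as these. Well counted genes of chromosome 13 were mostly higher in CPC2, and the part of this in the family counts was not tested. Most of these counts are close to the limit of detection. The close copies in the family make them uncertain.

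**Figure D5:**
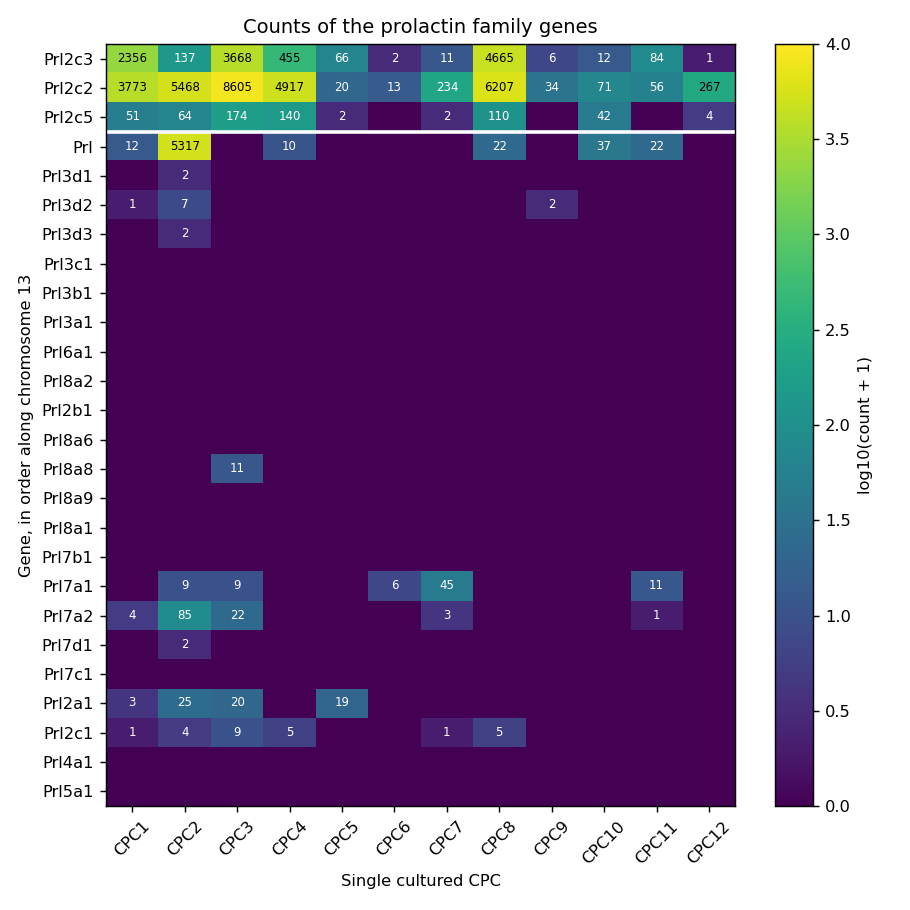
Counts of Prl, Prl2c2, Prl2c3, Prl2c5 and the 22 other prolactin family genes in the 12 cells, in order along chromosome 13; colour is log10(count + 1), numbers are counts, and blank fields are 0. The white line separates Prl2c2, Prl2c3 and Prl2c5 from the Prl stretch, which also holds Prl2c1. In that stretch CPC2 holds counts of 8 of the 22 other family genes and CPC3 of 5.

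Genes that belong to the usual sources of prolactin were read beside the whole table, in which 66.6% of genes had a count in some cell. Of 18 lactotroph and pituitary genes, 7 had counts, and Gata2 was at 0.494 CPM in CPC2. Growth hormone (Gh) and the dopamine receptor Drd2 were at 0 in all cells. Gata2, which endothelial cells also express, was the highest of the list, at 77.0 CPM in CPC10. Of 9 genes of hormone granules, 6 had counts, a share like that of the whole table, led by the peptide-trimming enzyme Cpe with a median of 1529 CPM and 1162 CPM in CPC2. Granins were at most at 7.51 CPM (Scg3 in CPC10), and Chga and the convertases Pcsk1 and Pcsk2 were at 0. Of 17 trophoblast genes 5 had counts, none of them in CPC2, and the highest was Tfap2c at 12.0 CPM in CPC10. Of 9 genes of the decidua, another source of prolactins, 5 had counts. Cebpb led them with a median of 119 CPM. Hoxa10 was counted in CPC2 alone, with 12 counts, and the progesterone receptor Pgr was at 0.

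Enzymes that cut prolactin into smaller peptides were also described. Cathepsin D (Ctsd) was counted in all 12 cells, at a median of 690 CPM and 501 CPM in CPC2, and Bmp1 was at 49.9 CPM in CPC2 against a median of 108 CPM in the other cells. Mmp2 was at 0 in CPC2 and at 1129 CPM in CPC10. Of 4 glucocorticoid receptor genes and targets, all had counts, and Fkbp5 was at 31.4 CPM in CPC2 against 12.1 CPM. All 6 growth factor receptor genes had counts, beside 66.6% of the whole table. Of these, 0 of the 5 that reached 10 CPM were 2-fold higher or lower in CPC2, beside 13.1% and 8.92% of the 10698 genes that did.

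Cell cycle genes were set beside the proliferins cell by cell. Over the 12 cells, 16 of 18 S-phase genes and 9 of 16 G2/M genes had a positive r with the proliferin sum, with medians of 0.27 and 0.05. Over all genes compared, 4201 of 9698 were positive and the median was -0.05. In CPC2 all 18 S-phase genes were at least 2-fold above the median of the other cells, and so were 13 of 16 G2/M genes. The share was 13.1% of the 10698 genes that reached 10 CPM in a cell. Mcm2, Mcm4 and Slbp were highest in CPC2 of all cells, at 253, 327 and 309 CPM. The S-phase list summed to 5469 CPM in CPC1, 5378 CPM in CPC2 and 4252 CPM in CPC8, 3 of the cells with high proliferin, but to 391 CPM in CPC3 and 1022 CPM in CPC4, the other 2. CPC12, low in proliferin, was at 3778 CPM. The G2/M list was highest in CPC9, at 8711 CPM, and CPC9 had 8.39 CPM of proliferin.

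Markers of cell types of the heart were summed in CPC2 as well. Fibroblast markers, of which all 10 had counts in some cell beside 66.6% of the whole table, summed to 910 CPM there. In the other cells they summed to 219 to 6764 CPM, with a median of 1753 CPM. In CPC2 5 of them had counts, as did 11702 of the 21729 genes in the table. Pdgfra was at 0.247 CPM in CPC2 against a median of 80.8 CPM, and Col1a1 at 56.8 CPM against 182 CPM. Col1a2 and Ddr2 were nearer to the other cells, at 637 CPM against 744 CPM and 160 CPM against 174 CPM. The endothelial markers summed to 13.8 CPM, the haematopoietic ones to 75.6 CPM, the mural ones to 22.2 CPM and the cardiomyocyte ones to 2.72 CPM. The medians of these sums in the other 11 cells were 15.6, 30.2, 89.8 and 3.96 CPM. Of the haematopoietic list, Cd68 was at 52.1 CPM in CPC2, and Ptprc, which defines leukocytes, was at 0.988 CPM there and at most at 9.70 CPM, in CPC7. Among progenitor genes, Ly6a was at 19.0 CPM in CPC2 against a median of 226 CPM, Alcam at 45.2 CPM against 98.7 CPM and Abcg2 at 106 CPM against 51.1 CPM.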

How the data were processed

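For each of 12 single cells the authors deposited the counts of reads on each gene, without normalization. The authors made them from paired 75-base reads mapped to mm10 with STAR 2.5.2b, keeping reads with 1 position in the genome. The counting program, annotation and strand rule are not given in the sources used here. All count columns were used. Counts were scaled to CPM. Intervals were exact (level 0.95). Correlations used log2(CPM + 1) over genes with a mean of 5 CPM or more counted in at least 3 cells. Positions and coding sequences came from GENCODE vM21 (GRCm38), where 98.4% of symbols matched, and promoters from RefSeq.

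The members and gene lists were chosen with earlier results of these data known. Named genes were the members, list genes at 10 CPM or more in CPC2 and 2-fold from the other cells, the highest gene of a list, defining genes at 0, the 5 genes most like each member, the 10 that stood out most in CPC2 and the nearest neighbours; other list genes were named after their values were seen. No test was made, since 12 cells of 1 group are not replicates of a condition. Scaling by edgeR 4.0.16 (TMM) and by DESeq2 1.42.0 (size factors), thinning to equal depth, pseudocounts and filters were alternatives. The steps were tested on simulated data. Python 3.11.15, pandas 2.3.3, scipy 1.17.1, matplotlib 3.10.9 and R 4.3.3 were used. Some list genes are not reported here.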

Additional observations from a re-analysis of the deposited data

How the results depend on the processing

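Of 119 alternative values over 43 results, 23 moved by more than the limit used for them. For medians that limit was the SD over cells, and no move passed it. For levels in CPM the SD is far wider than the medians: without CPC2 the median was 0 CPM for Prl, against 1.20, and 0.703 CPM for Prl2c5, against 4.29. For the share of Prl2c2 the SD was narrower than the median, at 24.4 beside 77.1%. That share was 71.1% with the counts pooled and 69.1% without CPC2. The ratio of CPC2 to the highest other cell became 0.477 with DESeq2 size factors and 0.489 with TMM for Prl2c2, and 0.0281 and 0.0288 for Prl2c3, against 0.595 and 0.0350 (0.0399 without CPC3). Settings chosen after seeing the data left out 1 cell: without CPC10 the ratio was 328 for Prl, and without CPC3 it was 1.15 for Prl2c2 and 0.471 for Prl2c5, against 0.344. Genes at least 2-fold higher in CPC2 than elsewhere numbered 106 without a filter and 12 at 50 CPM. Of the 5 genes most like Prl, 2 were shared on log2(CPM + 5), 0 by Spearman's rho and 0 without CPC2. By Spearman's rho 2 were shared for Prl2c2, 1 for Prl2c3, 2 for Prl2c5 and 3 for the sum. At 10 CPM the listed genes counted were 3 for the pituitary, 1 for trophoblast, 2 for granules, 1 for the other prolactin family, 1 for cardiomyocyte, 4 for haematopoietic and 3 for mural markers. The cause of these moves was not tested, apart from the smaller gene sets that filters leave. No paired analysis was possible because the cells form 1 group. Depth limits the genes with few counts.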
